A study of Danio rerio with 6 samples.

Results

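The genes described here carry cells through mitosis: the kinases and cyclins of mitotic entry, the spindle assembly checkpoint, the machinery of anaphase, condensin and the proteins of cytokinesis. The set was defined by 42 zebrafish gene symbols, chosen with earlier results of these data known. Of these symbols, 38 were matched to a row of the count table, among 34965 genes in all. Of the matched symbols, 37 were spelled alike in the reference table that pairs symbols with gene identifiers, and *prc1a* was matched through the study's own list of splicing events. That list comes from these libraries, so the match of *prc1a* is not independent of them. The symbols *incenp*, *birc5a*, *cenpa* and *prc1b* had no match of that spelling and were not analysed here. All 38 genes passed the filter on low counts, as did 24277 genes of the whole table, and the lowest count of any of them in any library was 188.

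The RNA came from heads of AB strain zebrafish embryos dissected at 36 h post-fertilization (hpf). There were 3 libraries from *prpf31*-/- mutants, a line made with CRISPR/Cas9, and 3 libraries from their wild type siblings, each a pool of 35 heads of one genotype. Prpf31 is a splicing factor of the U4/U6.U5 tri-snRNP, the particle that brings these snRNAs to the assembling spliceosome. A library from whole heads mixes retina, brain, lens, skin and muscle, so fewer dividing cells and less RNA per dividing cell cannot be told apart in these values. The p-values below set the difference between mutants and siblings against the spread between pools.

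Entry into mitosis is driven by Cdk1 bound to cyclin B, together with the Polo and Aurora kinases. Until every chromosome is attached to spindle microtubules, the spindle checkpoint holds back the anaphase-promoting complex (APC/C), a ubiquitin ligase. Once released, the APC/C marks securin and cyclin B for destruction, separase cuts cohesin, and the cell divides. In an embryonic head these transcripts are typical of proliferating progenitors of the retina and brain, since most of them are made in the G2 and M phases of the cell cycle and are shut off in postmitotic neurons.

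Total counts lay between 65612727 and 66381302 in mutants and between 58706617 and 65799306 in siblings. The targeted gene *prpf31* had 22.4, 24.5 and 27.3 CPM in mutants 1 to 3, against 38.7, 37.9 and 37.6 CPM in siblings 1 to 3 (log2 fold change −0.62 ± 0.11 SE, edgeR quasi-likelihood test, adjusted p = 0.0180). CPM are counts scaled to a fixed library size, with TMM factors, and adjusted p values are Benjamini-Hochberg values over all genes tested. Mutant 1 stood apart from the other libraries. The 10 genes with the most counts held 14.5% of the total in mutant 1 and 8.14 to 9.54% in the other libraries, and its TMM factor was 0.816, against 1.02 to 1.06. The summed level of the 5 muscle markers was 63030 CPM in mutant 1, 25440 and 25690 CPM in mutants 2 and 3, and 25230 to 30100 CPM in siblings. The 5 posterior Hox genes summed to 71.8 CPM in mutant 1, 24.8 and 31.7 CPM in mutants 2 and 3, and 34.8 to 37.8 CPM in siblings. The 5 lens markers summed to 92.0 CPM in mutant 1, 552 and 533.5 CPM in mutants 2 and 3, and 558 to 682 CPM in siblings. Each of the 5 muscle and 5 posterior Hox genes was highest, and each of the 5 lens genes lowest, in mutant 1. These were the genes with a match, out of 8 symbols listed for muscle, 14 for posterior Hox and 8 for lens. The part of this composition in the mitotic genes was not tested, and results are given with and without that library.

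Of the 38 mitotic genes, 5 fell in mutants and 0 rose in edgeR, with a threshold of 0.05 on the adjusted p. The 5 were *zwilch*, *mad1l1*, *trip13*, *top2a* and *ube2c*, 3 of them spindle checkpoint genes. They made up 13.2% of the set, and 3.83% of all genes tested were called lower and 3.96% higher. At an unadjusted p under 0.05, 11 of the genes were lower (28.9%, against 12.5% of all genes) and 0 higher (11.8% of all genes), and DESeq2 called 6 lower, the same 5 and *cdk1*, and 0 higher (6.26% and 6.57% of its genes). With the replicate number as a block, 8 were called lower and 0 higher, where 6.61% and 6.09% of all genes were. The median log2 fold change of the set was −0.18, against 0.019 for all genes tested, and 26 of 38 fitted values were below 0 (68.4%, against 48.3% of all genes).

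These counts changed when single libraries were left out, which also leaves fewer libraries in a group. Without mutant 1, 8 genes were called lower and 4 higher (8.17% and 8.22% of all genes), and the median of the set was −0.068, against −0.012 for all genes, with 21 fitted values below 0 and 17 above. The 8 lower ones were the 5 above with *cdk1*, *ttk* and *smc4*, which were also the 8 of the block fit, and the 4 higher ones were *anln*, *ccnb1*, *ccnb2* and *espl1*. Leaving out mutant 3, sibling 1 or sibling 3 left 1 call, leaving out sibling 2 left 0, and leaving out mutant 2 left 5. The shares of all genes called in those fits were not taken, so these counts are not set against the whole table. The targeted gene *prpf31* also lost its call without mutant 2 (edgeR adjusted p = 0.0629) and without sibling 1, 2 or 3 (0.0776, 0.0898 and 0.0883). It kept the call without mutant 1 or mutant 3 (edgeR adjusted p = 0.00660 and 0.0448). Without sibling 2 the log2 fold changes were −1.24 for *zwilch*, −0.77 for *mad1l1*, −0.72 for *trip13*, −0.75 for *top2a* and −0.63 for *ube2c*. With all libraries they were −1.27, −0.81, −0.76, −0.78 and −0.62.

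**Figure D1:**
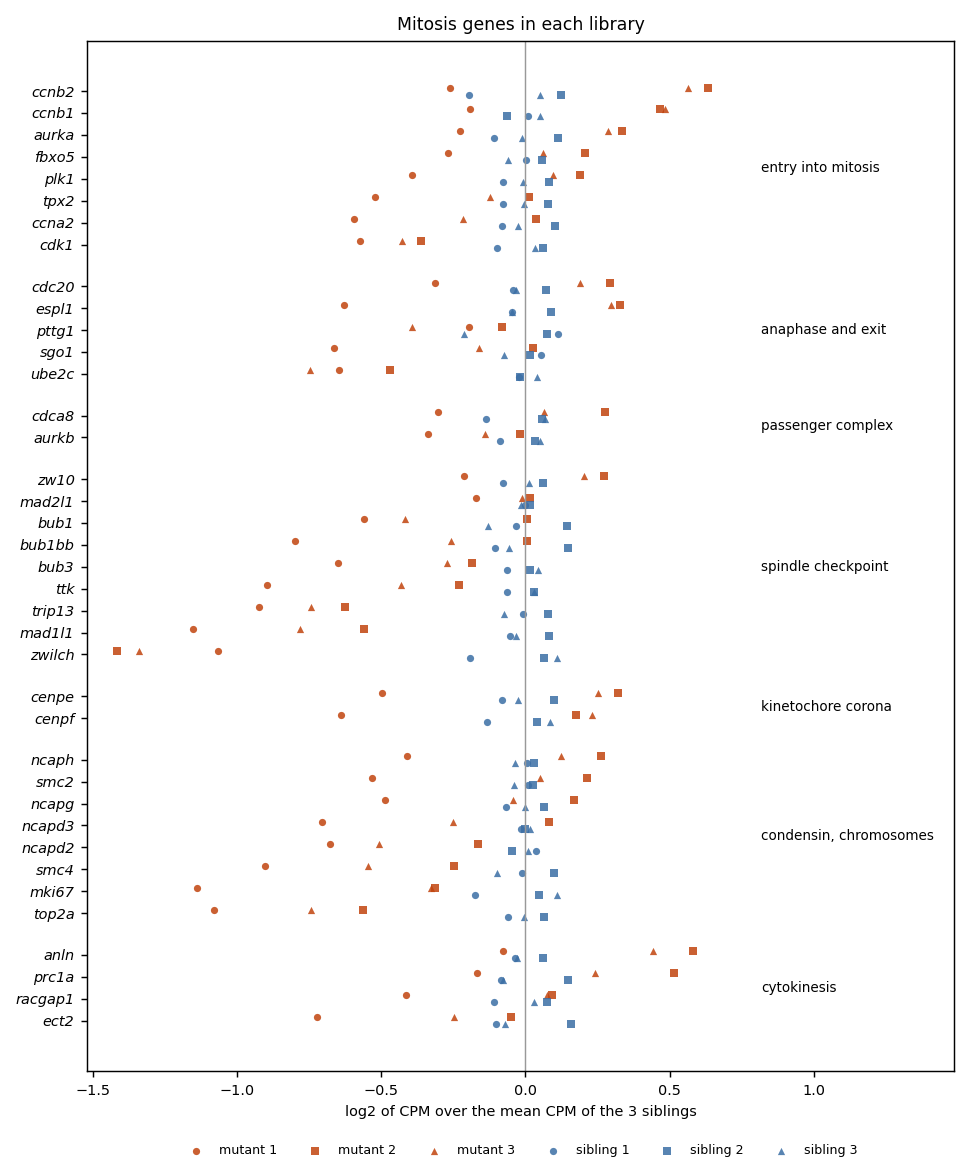
Level of each of the 38 mitotic genes in each library, as log2 of its CPM over the mean CPM of the 3 siblings (x axis), with genes in rows grouped by role, mutants in orange just above siblings in blue. Mutant 1 is the lowest of the 6 libraries for 35 of the 38 genes, and mutants 2 and 3 lie on both sides of the siblings.

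Mutant 1 was below all 5 other libraries for 35 of the 38 genes (92.1%, where 30.3% of all genes were), the exceptions being *zwilch*, *ube2c* and *pttg1*. Its level was a median of 0.52 below the mean of mutants 2 and 3 on the log2 scale, with a range from −0.93 for *espl1* to 0.27 for *zwilch*, against a median of −0.037 over all genes. Mutants 2 and 3 differed from each other by a median of 0.14 and no pair of siblings by more than 0.13. With mutants 2 and 3 alone, both libraries lay above all siblings for 15 genes (23.5% of all genes did) and below all siblings for 11 (24.3% of all genes). When all 3 mutants were counted, 11 genes had every mutant below every sibling (17.4% of all genes), 0 had every mutant above (14.9% of all genes), and 27 overlapped. Taken by pairs of equal replicate number, 18 genes were lower in the mutant of all 3 pairs (47.4%, against 27.1% of all genes) and 0 were higher in all 3 (26.1% of all genes). Among these 18 were *bub1*, *bub1bb* and *ect2*, whose groups overlapped. Pair by pair, all 38 genes were lower in the mutant of pair 1, 18 in pair 2 and 22 in pair 3. No gene could thus be higher in all 3 pairs, through pair 1 alone. Shares of all genes by single pair were not taken.

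The 2 lowest log2 fold changes of the set were in the spindle checkpoint. Of its 9 genes, 3 fell and 0 rose in edgeR (3.83% and 3.96% of all genes), and 8 had a fitted value below 0 (48.3% of all genes). The median log2 fold change was −0.36, or −0.24 without mutant 1. *zwilch* encodes a subunit of the Rod-Zw10-Zwilch (RZZ) complex, which brings dynein and the Mad1-Mad2 pair to unattached kinetochores. It had 3.54, 2.77 and 2.93 CPM in mutants 1 to 3, against 6.48, 7.74 and 7.98 CPM in siblings 1 to 3. All mutants were below all siblings, mutant 1 was the highest of the mutants, and the log2 fold change was −1.27 ± 0.17 (SE, edgeR adjusted p = 0.00730). It was the 1 gene of the set past a change of 2-fold, where 1.22% of all genes were called lower at that size. Behind these values were 188 to 200 counts in mutants and 387 to 559 in siblings, and without sibling 2 the edgeR adjusted p was 0.0505.

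*mad1l1* encodes Mad1, which anchors Mad2 at kinetochores that lack microtubules. It had 10.8, 16.4 and 14.0 CPM in mutants 1 to 3, against 23.2, 25.5 and 23.5 CPM in siblings 1 to 3. The groups did not overlap, and the log2 fold change was −0.81 ± 0.16 (SE, edgeR adjusted p = 0.0262). *trip13* encodes the AAA-ATPase that remodels Mad2 and takes checkpoint complexes apart. Its level was 8.92, 11.0 and 10.1 CPM in mutants 1 to 3, against 16.8, 17.9 and 16.1 CPM in siblings 1 to 3. Here too every mutant was below every sibling (log2 fold change −0.76 ± 0.13 SE, edgeR adjusted p = 0.0149). Without mutant 1 the log2 fold changes of *mad1l1* and *trip13* were −0.67 and −0.69, with edgeR adjusted p values of 0.00650 and 0.00522.

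The other checkpoint genes had smaller differences. *ttk*, the gene of the Mps1 kinase that starts the checkpoint signal, had 34.7, 55.1 and 47.9 CPM in mutants 1 to 3, against 61.9, 66.0 and 66.0 CPM in siblings 1 to 3. Its groups did not overlap, but the call depended on the fit: the log2 fold change was −0.49 ± 0.17 (SE), with an edgeR adjusted p of 0.126, or 0.0492 with the replicate block. *bub3*, a WD-repeat protein that brings Bub1 and BubR1 to kinetochores, was the most abundant checkpoint gene per length, at 86.0 ± 23.7 FPKM in mutants and 119 ± 7.40 FPKM in siblings (SD, n = 3 each). It had 84.7, 117 and 110 CPM in mutants 1 to 3, against 127, 134 and 137 CPM in siblings 1 to 3. The groups did not overlap, and the log2 fold change was −0.36 (edgeR adjusted p = 0.176). *mad2l1*, the gene of the Mad2 protein that binds Cdc20, had 42.3, 48.2 and 47.2 CPM in mutants 1 to 3, against 47.6, 48.1 and 47.1 CPM in siblings 1 to 3. Those ranges overlapped, with a log2 fold change of −0.05 and an edgeR adjusted p of 0.796. *zw10*, the partner of Zwilch in the RZZ complex, had 34.0, 47.6 and 45.3 CPM in mutants 1 to 3, against 37.3, 41.1 and 39.7 CPM in siblings 1 to 3. Its mutants spanned the siblings, and the log2 fold change was 0.10 (edgeR adjusted p = 0.705). The kinase gene *bub1* and the BubR1-type gene *bub1bb* had log2 fold changes of −0.30 and −0.31, with overlapping groups and edgeR adjusted p values of 0.312 and 0.381.

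**Figure D2:**
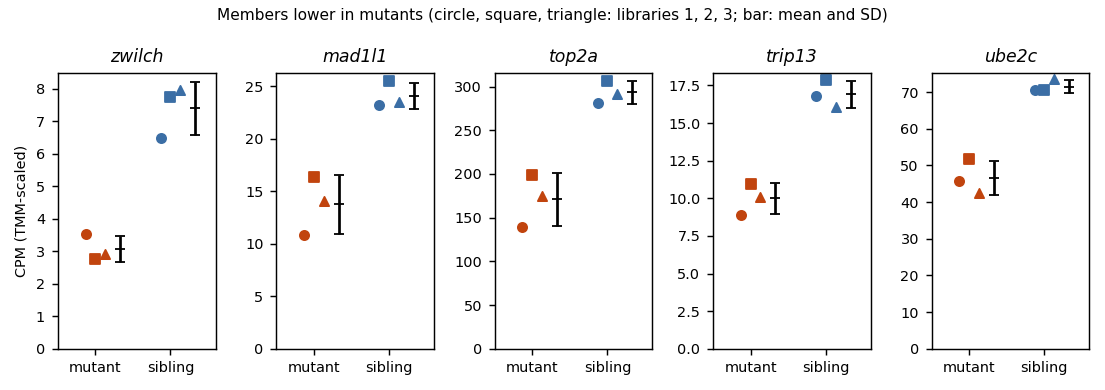
CPM of the 5 genes called lower in mutants, with 1 point per library, mutants left of siblings, and bars for the mean ± SD of each group. All 3 mutants lie below all 3 siblings for each gene, and *zwilch* shows mutant 1 as the highest mutant.

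Among the 5 genes of anaphase and mitotic exit, 1 fell in edgeR (3.83% of all genes), and their median log2 fold change was −0.22, or −0.07 without mutant 1. *ube2c* encodes the ubiquitin-conjugating enzyme with which the APC/C starts ubiquitin chains, and per length it was at 48.4 FPKM in mutants, below *cdc20* at 57.0 FPKM, and at 81.0 FPKM in siblings, where it was the most abundant of this group. It had 45.7, 51.6 and 42.6 CPM in mutants 1 to 3, against 70.5, 70.5 and 73.6 CPM in siblings 1 to 3. The mutants were all lower than the siblings, with mutant 1 between the other mutants (log2 fold change −0.62 ± 0.11 SE, edgeR adjusted p = 0.0192). Without mutant 1 the log2 fold change was −0.61. *cdc20*, the APC/C activator that the checkpoint inhibits, had 70.1, 107 and 99.4 CPM in mutants 1 to 3, against 84.4, 91.6 and 85.2 CPM in siblings 1 to 3. The mutants lay on both sides of the siblings (log2 fold change 0.08, edgeR adjusted p = 0.805, or 0.23 and 0.0889 without mutant 1).

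*espl1*, the gene of separase, had the widest gap between mutant 1 and the other mutants, with 47.6, 92.1 and 90.3 CPM in mutants 1 to 3, against 71.1, 78.2 and 71.1 CPM in siblings 1 to 3. Mutant 1 was the lowest library and mutants 2 and 3 the highest. Its log2 fold change was 0.06 (edgeR adjusted p = 0.902) with all libraries and 0.30 (edgeR adjusted p = 0.0421) without mutant 1. The securin gene *pttg1* and the gene of the cohesin protector shugoshin, *sgo1*, had log2 fold changes of −0.22 and −0.24, with overlapping groups.

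Of the 8 genes of entry into mitosis, 0 passed edgeR's test in either direction, while DESeq2 called *cdk1* lower (adjusted p = 0.00960), and their median log2 fold change was −0.00035, or 0.13 without mutant 1. *cdk1*, the kinase that drives the entry, had 74.2, 85.8 and 82.1 CPM in mutants 1 to 3, against 103, 115 and 113 CPM in siblings 1 to 3. Every mutant was below every sibling. The log2 fold change was −0.45 ± 0.11 (SE), and its edgeR adjusted p was 0.0503 without and 0.0357 with the replicate block. The B-type cyclins that bind this kinase had values on the other side of the siblings in mutants 2 and 3. *ccnb1* had 107, 170 and 172 CPM in mutants 1 to 3, against 123, 118 and 127 CPM in siblings 1 to 3. *ccnb2* had 12.6, 23.4 and 22.3 CPM in mutants 1 to 3, against 13.1, 16.4 and 15.6 CPM in siblings 1 to 3. For both cyclins mutant 1 was the lowest library and mutants 2 and 3 were the highest. Their log2 fold changes were 0.29 ± 0.19 and 0.37 ± 0.23 (SE, edgeR adjusted p = 0.388 and 0.380) with all libraries, and 0.47 and 0.59 (edgeR adjusted p = 0.00570 and 0.0145) without mutant 1.

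Per length, *ccnb1* was the most abundant gene of this group in mutants and *plk1*, the Polo kinase gene, in siblings. *plk1* had 113, 169 and 158 CPM in mutants 1 to 3, against 140, 156 and 147 CPM in siblings 1 to 3, and the mutants spanned the siblings (log2 fold change −0.01, edgeR adjusted p = 0.968). The remaining genes of entry were *ccna2* for cyclin A2, *aurka* for Aurora A, *tpx2* for the spindle protein that activates Aurora A, and *fbxo5* for the APC/C inhibitor Emi1. Their log2 fold changes lay between −0.23 and 0.15, and their groups overlapped.

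Of the 8 condensin and chromosome genes, 1 fell in edgeR (3.83% of all genes) and 7 had a fitted value below 0 (48.3% of all genes). The median log2 fold change was −0.34, or −0.21 without mutant 1. *top2a* encodes topoisomerase II alpha, which untangles sister chromatids. It had 139, 199 and 175 CPM in mutants 1 to 3, against 281, 307 and 292 CPM in siblings 1 to 3. No mutant reached the lowest sibling, and the log2 fold change was −0.78 ± 0.15 (SE, edgeR adjusted p = 0.0244), or −0.66 (edgeR adjusted p = 0.00331) without mutant 1. *smc4*, one of the pair of ATPase subunits of condensin, had 103, 162 and 132 CPM in mutants 1 to 3, against 191, 206 and 180 CPM in siblings 1 to 3. Its groups did not overlap, with a log2 fold change of −0.54 ± 0.17 (SE) and an edgeR adjusted p of 0.104, or 0.0431 with the replicate block. *smc2*, the other ATPase subunit, had 115, 192 and 172 CPM in mutants 1 to 3, against 167, 169 and 162 CPM in siblings 1 to 3. Mutants 2 and 3 were above the siblings and mutant 1 below (log2 fold change −0.06, edgeR adjusted p = 0.886).

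*ncaph*, the kleisin subunit of condensin I, had the highest log2 fold change of these 8 genes, with 49.7, 79.3 and 72.0 CPM in mutants 1 to 3, against 66.3, 67.5 and 64.5 CPM in siblings 1 to 3. It was again mutant 1 alone that lay below the siblings (log2 fold change 0.02, edgeR adjusted p = 0.956). *mki67*, the gene of the Ki-67 protein that coats mitotic chromosomes and marks cycling cells, had 254, 450 and 446 CPM in mutants 1 to 3, against 496, 577 and 604 CPM in siblings 1 to 3. All mutants were below the siblings, with mutant 1 far below mutants 2 and 3, and the test was not passed (log2 fold change −0.54 ± 0.23 SE, edgeR adjusted p = 0.193, or −0.33 and 0.0593 without mutant 1). Of the other condensin genes, *ncapd2* had every mutant below every sibling (log2 fold change −0.43, edgeR adjusted p = 0.1245). The groups of *ncapg* and *ncapd3* overlapped, with log2 fold changes of −0.09 and −0.26.

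The kinetochore corona and the chromosomal passenger complex showed no call in edgeR. *cenpe*, the kinesin that moves chromosomes to the spindle equator, had 140, 246 and 234 CPM in mutants 1 to 3, against 186, 211 and 194 CPM in siblings 1 to 3. *cenpf*, which encodes a large corona protein, had 84.1, 148 and 154 CPM in mutants 1 to 3, against 119, 134 and 139 CPM in siblings 1 to 3. In both, mutant 1 was the lowest library and mutants 2 and 3 were the highest, with log2 fold changes of 0.07 and −0.03, or 0.28 and 0.20 without mutant 1. *aurkb*, the kinase of the passenger complex, had 95.2, 119 and 109 CPM in mutants 1 to 3, against 113, 123 and 125 CPM in siblings 1 to 3. *cdca8*, the gene of its subunit borealin, had 56.1, 83.7 and 72.4 CPM in mutants 1 to 3, against 62.9, 72.0 and 72.6 CPM in siblings 1 to 3. Both had overlapping groups, with edgeR adjusted p values of 0.467 and 0.924. Of the complex's remaining subunits, a gene listed as *BIRC5* in the reference table, and not counted in the set, had 13.4, 15.5 and 15.7 CPM in mutants 1 to 3, against 16.4, 19.4 and 18.4 CPM in siblings 1 to 3 (edgeR adjusted p = 0.211).

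The 4 cytokinesis genes had a median log2 fold change of 0.08, or 0.23 without mutant 1, and no call in edgeR with all libraries. *anln*, the gene of the cleavage furrow scaffold anillin, had 109, 172 and 156 CPM in mutants 1 to 3, against 112, 120 and 112 CPM in siblings 1 to 3. Mutants 2 and 3 were above every sibling and mutant 1 was below them. The log2 fold change was 0.34 ± 0.17 (SE, edgeR adjusted p = 0.275), and 0.50 (edgeR adjusted p = 0.00646) without mutant 1. *ect2*, the exchange factor that activates RhoA at the furrow, had 26.2, 41.8 and 36.4 CPM in mutants 1 to 3, against 40.2, 48.3 and 41.1 CPM in siblings 1 to 3. Those groups overlapped through mutant 2 (log2 fold change −0.31, edgeR adjusted p = 0.332). The centralspindlin gene *racgap1* had a log2 fold change of −0.06. *prc1a*, which encodes a protein that bundles microtubules of the spindle midzone, had 55.9, 89.8 and 74.2 CPM in mutants 1 to 3, against 59.3, 69.6 and 59.6 CPM in siblings 1 to 3. Its groups overlapped (log2 fold change 0.22, edgeR adjusted p = 0.492). A second gene listed as *PRC1*, outside the set and shown because of that name, had 29.1, 42.7 and 44.1 CPM in mutants 1 to 3, against 23.7, 25.7 and 25.9 CPM in siblings 1 to 3. All 3 of its mutants were above the siblings. Its log2 fold change was 0.62 ± 0.17 (SE), with an edgeR adjusted p of 0.0672 without and 0.0291 with the replicate block. DESeq2 called it higher (adjusted p = 0.0162).

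**Figure D3:**
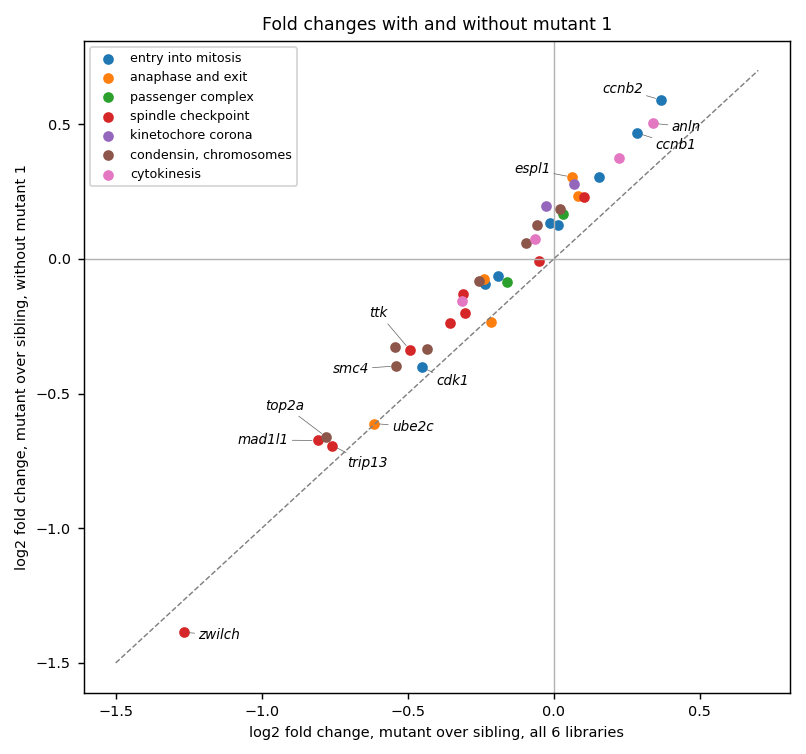
Log2 fold change, mutant over sibling, of the 38 genes from all 6 libraries (x axis) and from the 5 libraries without mutant 1 (y axis), coloured by role, with the line of equal values dashed. The 12 genes named are those with an edgeR adjusted p of 0.05 or lower without mutant 1, 8 of them lower and 4 higher in mutants.

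Members of one complex did not always have the same difference. FPKM ratios within a library, which do not depend on the scaling between libraries, were taken for 9 pairs of partners chosen after their values were seen, and are given without a test. The ratio of *zwilch* to *zw10* was 0.124, 0.0692 and 0.0767 in mutants 1 to 3, against 0.207, 0.224 and 0.239 in siblings 1 to 3. The ratio of *mad1l1* to *mad2l1* was 0.0981, 0.130 and 0.114 in mutants 1 to 3, against 0.187, 0.203 and 0.191 in siblings 1 to 3. Both checkpoint ratios were lower in every mutant than in any sibling.

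The same held inside condensin. The ratio of *smc4* to *smc2* was 0.815, 0.766 and 0.698 in mutants 1 to 3, against 1.04, 1.11 and 1.01 in siblings 1 to 3, and that of *ncapd2* to *ncapg* was 0.859 ± 0.0810 in mutants and 1.08 ± 0.0807 in siblings (SD, n = 3 each). *ect2* against *racgap1* had 0.278 ± 0.0198 in mutants and 0.332 ± 0.0213 in siblings. In the other direction, the ratio of *ccnb1* to *cdk1* was 2.08, 2.83 and 3.00 in mutants 1 to 3, against 1.72, 1.47 and 1.62 in siblings 1 to 3. The ratio of *aurka* to *tpx2* was 0.449, 0.459 and 0.486 in mutants 1 to 3, against 0.359, 0.375 and 0.365 in siblings 1 to 3. The groups did not overlap in these 7 pairs, with mutant 1 on the same side as mutants 2 and 3. They overlapped for *ccna2* against *cdk1* and for *bub1* against *bub3*. As all these pairs were chosen after their values were seen, the count of 7 only describes them. No share of other gene pairs was taken beside it.

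**Figure D4:**
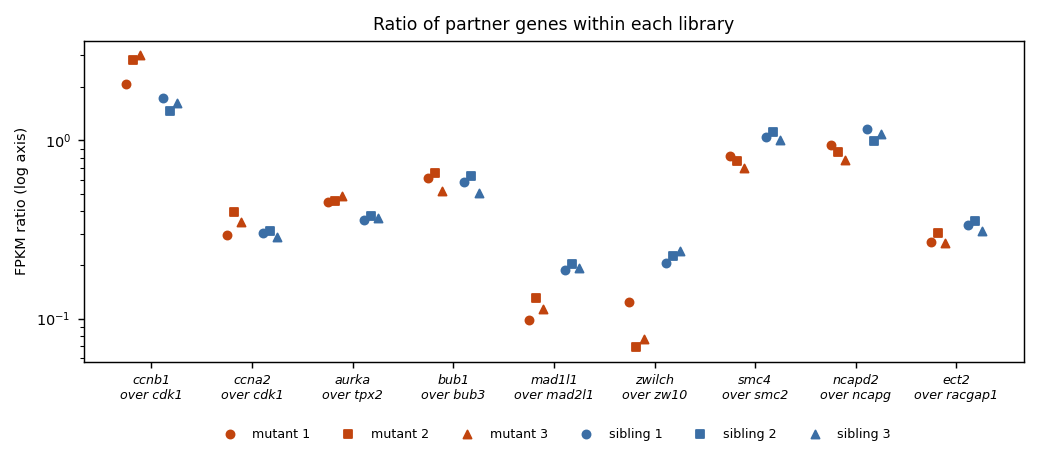
Ratio of the FPKM of partner genes within each library, on a log axis, for 9 pairs, with mutants left of siblings and 1 point per library. The pairs were chosen after their values were seen. The groups are apart in 7 of them, and mutant 1 lies with the other mutants in each of those.

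Levels of different genes were compared per length, as FPKM. The deposited FPKM carry no TMM scaling, so mutant 1, with a TMM factor of 0.816, is lower in them than in CPM. With that scaling *plk1* had a mean of 146 CPM in mutants and 148 CPM in siblings. *plk1* was at 147 ± 45.6 FPKM in mutants and 159 ± 12.1 FPKM in siblings (SD, n = 3 each, as below). *ccnb1* was at 154 ± 53.7 FPKM in mutants and 135 ± 6.17 FPKM in siblings, and *tpx2* at 102 ± 29.9 FPKM in mutants and 126 ± 9.56 FPKM in siblings. These were the 3 highest genes of the set per length in both groups, and in mutants their differences from each other were smaller than 1 SD of *ccnb1*. The order rests on the length behind the FPKM, 974 bases for *plk1* and 953 for *ccnb1*, against 8187 for *mki67* and 4189 for *top2a*. Whether those lengths match the transcripts was not tested. In CPM, *mki67* was at 559 and *top2a* at 293 in siblings, above *tpx2* at 203, *plk1* at 148 and *ccnb1* at 123. *zwilch* was the lowest of the 38, at 2.03 ± 0.0785 FPKM in mutants and 5.41 ± 0.717 FPKM in siblings. The largest difference in rank was that of *top2a*, at rank 18 of 38 in mutants and rank 10 in siblings, with 39.7 ± 11.2 FPKM in mutants and 73.5 ± 4.83 FPKM in siblings. Across the 38 genes, the level in siblings and the log2 fold change had a Spearman correlation of −0.000109, a description over genes that share the same libraries.

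Other genes of the same pathways were taken from 6 lists, chosen like the set with earlier results of these data known. Counts of calls in them thus only describe the lists. The lists held 104 symbols, of which 79 genes were tested. In edgeR 7 of these fell (3.83% of all genes did), 0 rose (3.96% of all genes), and the median log2 fold change was −0.17, or −0.07 without mutant 1. With the replicate block 12 were called lower and 1 higher (6.61% and 6.09% of all genes), and without mutant 1 there were 11 lower and 6 higher (8.17% and 8.22% of all genes). The list of further checkpoint and kinetochore genes had 4 of its 8 genes called lower. They were *bub1ba*, a second BubR1-type gene (log2 fold change −0.92, edgeR adjusted p = 0.0147), *kntc1*, the gene of Rod and so of the RZZ subunit beside Zw10 and Zwilch (−0.74, edgeR adjusted p = 0.0352), and *mis12* and *dsn1*, which encode subunits of the outer kinetochore's Mis12 complex (−0.88 and −0.55, edgeR adjusted p = 0.0145 and 0.0417). *kntc1* had 30.0, 46.0 and 38.4 CPM in mutants 1 to 3, against 61.7, 67.0 and 62.2 CPM in siblings 1 to 3. As with *zwilch*, no mutant reached the lowest sibling.

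The remaining 3 calls were *cenph* of the inner kinetochore (log2 fold change −1.10, edgeR adjusted p = 0.00854), *lin54*, a DNA-binding subunit of the MuvB complex that regulates cell cycle genes (−0.50, edgeR adjusted p = 0.0407), and the cohesin gene *stag1a* (−0.86, edgeR adjusted p = 0.00854). *stag1a* was matched through the study's list of splicing events, a further way in which it is not independent of these libraries. *cenph* had 3.00, 3.20 and 2.81 CPM in mutants 1 to 3, against 6.50, 6.90 and 5.86 CPM in siblings 1 to 3. Its mutants lay close together and all below the siblings. *wee1*, the gene of the kinase that holds Cdk1 inactive, had 64.6, 98.3 and 90.2 CPM in mutants 1 to 3, against 52.4, 56.1 and 52.9 CPM in siblings 1 to 3. All of its mutants were above the siblings, with a log2 fold change of 0.65 and an edgeR adjusted p of 0.0543 without and 0.0277 with the replicate block, and DESeq2 called it higher (adjusted p = 0.00802). The largest differences in the lists of APC/C and cytokinesis genes were those of *anapc5* (−0.76, edgeR adjusted p = 0.0686, or 0.0116 with the block) and *cdca3* (−0.34, edgeR adjusted p = 0.198). DESeq2 called *anapc5* lower (adjusted p = 0.0155).

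**Figure D5:**
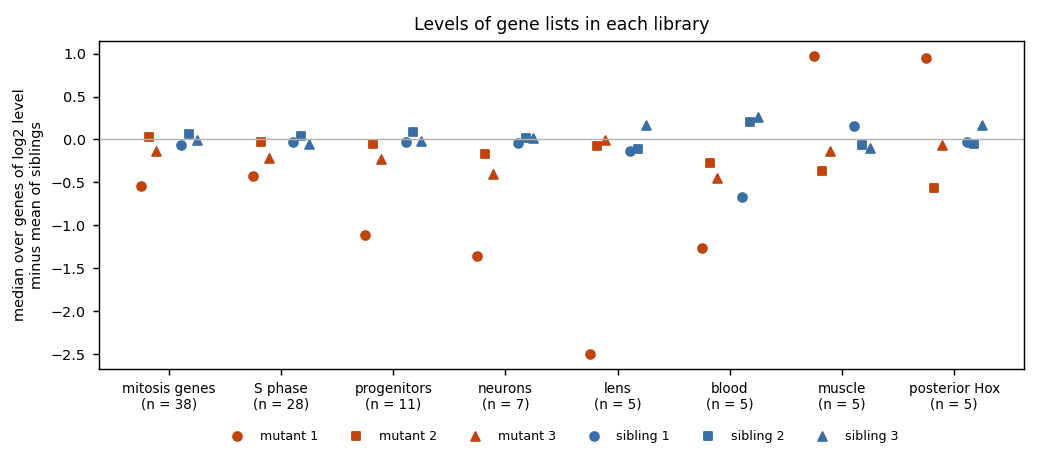
Median log2 CPM minus the sibling mean in each library, for the 38 mitotic genes, the S phase genes and the lists of cell type markers, with mutants left of siblings and 1 point per library. In mutant 1 the mitotic genes are at −0.54, lens markers at −2.50 and muscle markers at 0.98, while in mutants 2 and 3 the mitotic genes are at 0.034 and −0.13.

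The S phase genes, a second measure of cycling cells, had 3 of 28 called lower and 0 higher in edgeR (3.83% and 3.96% of all genes), with a median log2 fold change of −0.25, against −0.18 for the mitotic genes. The replicate block gave 5 lower and 0 higher (6.61% and 6.09% of all genes). Without mutant 1 there were 7 lower and 3 higher (8.17% and 8.22% of all genes), with a median of −0.13. Their median in mutant 1 was −0.43 against the siblings, where the mitotic genes were at −0.54. The 11 neural progenitor markers tested summed to 761, 1352 and 1230 CPM in mutants 1 to 3, against 1088, 1187 and 1101 CPM in siblings 1 to 3. In edgeR 1 of them was called lower and 0 higher (3.83% and 3.96% of all genes). Although the sums of mutants 2 and 3 were above every sibling, 9 of the 11 markers had a fitted value below 0 (48.3% of all genes). Their median log2 fold change was −0.40, or −0.17 without mutant 1. With the replicate block 3 were called lower and 0 higher (6.61% and 6.09% of all genes). Without mutant 1 the calls went both ways, 3 lower and 2 higher (8.17% and 8.22% of all genes). The 7 markers of postmitotic neurons summed to 550, 1061 and 965 CPM in mutants 1 to 3, against 1383, 1473 and 1407 CPM in siblings 1 to 3, with 1 called lower (3.83% of all genes). All 7 had a fitted value below 0, with a median log2 fold change of −0.55, or −0.26 without mutant 1. With the replicate block 3 were called lower and 0 higher (6.61% and 6.09% of all genes), and the same counts held without mutant 1 (8.17% and 8.22% of all genes). The 38 mitotic genes summed to 2645, 4074 and 3719 CPM in mutants 1 to 3, against 3856, 4203 and 4062 CPM in siblings 1 to 3. The 5 blood markers summed to 350, 785 and 535 CPM in mutants 1 to 3, against 559, 975 and 958 CPM in siblings 1 to 3. In edgeR 0 of them were called in either direction, with or without mutant 1, while the replicate block gave 2 lower and 0 higher (6.61% and 6.09% of all genes). All 5 had a fitted value below 0 (48.3% of all genes), with a median log2 fold change of −0.78, or −0.48 without mutant 1. Mutant 1 was thus the lowest library in the mitotic, progenitor, neuronal and blood sums. The lists held 30 symbols for S phase, 16 for progenitors, 12 for neurons and 8 for blood, and those without a match were not analysed. The part of these cell types in the results above was not tested.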

How the data were processed

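The authors aligned reads of poly(A)-selected RNA to GRCz11 with HISAT2 2.0.4. The deposited counts are whole fragments per gene, for which the study names both featureCounts and HTSeq 0.9.1. The kit did not mark strand, so genes overlapping on opposite strands cannot be told apart. FPKM, as deposited, follow from those counts and 1 length per gene (largest relative deviation 4e-08 over 22043 genes).

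After filterByExpr and TMM scaling, the counts were fitted in edgeR 4.0.16 (R 4.3.3, quasi-likelihood F test), with Benjamini-Hochberg adjustment over 24277 genes. The biological coefficient of variation was 0.243. Alternatives were DESeq2 1.42.0, limma 3.58.1 on log2(FPKM + 1) and log2(FPKM + 0.1), other filters and scalings, the replicate number as a block and each library left out. The fits were tested on simulated data. That simulation held no library set apart like mutant 1 and no pairing, so it cannot speak to either. Python 3.11.15, numpy 2.4.6, pandas 2.3.3 and matplotlib 3.10.9 made the tables and plots.

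The members and the gene lists were chosen with earlier results of these data known. Values in every library are given for each gene with an adjusted p of 0.05 or lower and, in each role, for the most abundant gene per length and those with the highest and lowest log2 fold change. *ttk*, *mad2l1*, *espl1*, *ccnb1*, *smc4*, *mki67*, *prc1a*, *PRC1* and *BIRC5* were added after their values were seen. Of the other pathway genes, those with an adjusted p of 0.05 or lower and the largest change of each list are named. The count table was used whole.

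Libraries of both groups carry the numbers 1 to 3. Over 18077 genes, deviations from the group means correlated at 0.421, 0.386 and 0.563 for equal numbers and from −0.371 to −0.0952 for unequal ones. Deviations within a group cancel out, so the values for unequal numbers follow in part from those for equal ones. From the values for equal numbers, the numbers were taken to pair the libraries. The main edgeR fit did not use this pairing, and the fit with the replicate block did. What they share is not stated.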

Additional observations from a re-analysis of the deposited data

How the results depend on the processing

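The count of mitotic genes called lower was 5 in edgeR (3.83% of all genes), 3 with library sizes alone (2.14%), 8 with the replicate block (6.61%), 3 in limma on log2(FPKM + 1) (3.46%), 3 on log2(FPKM + 0.1) (2.96%) and 1 on log2(FPKM + 1) with no filter (1.08%). It was 0 to 8 with single libraries left out, and the count called higher was 0 to 4. Of these fits, the share of all genes was taken only for that without mutant 1 (8.17% lower, 8.22% higher). With the replicate block and without pair 1, a fit added after seeing the data that rests on 4 libraries, 12 were called lower and 8 higher (14.7% of all genes each way). The replicate block also changed the calls of *cdk1*, *smc4*, *ttk*, *PRC1*, *wee1* and *anapc5* given above, and of no other gene named above that was refitted under it. The cause of these changes was not tested.

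The 5 called genes kept their direction under every alternative, with log2 fold changes of −1.48 to −1.07 for *zwilch*, −0.95 to −0.67 for *mad1l1*, −0.93 to −0.66 for *top2a*, −0.89 to −0.69 for *trip13* and −0.76 to −0.55 for *ube2c*. Their highest adjusted p values were 0.0505, 0.115, 0.111, 0.0849 and 0.103.

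The genes whose sign changed had fitted values near 0. Library sizes alone and log2(FPKM + 0.1) moved the median of all genes to −0.11 and −0.12, against 0.019. With library sizes alone the log2 fold changes were −0.10 for *fbxo5*, −0.021 for *cdc20*, −0.025 for *espl1*, −0.075 for *cdca8*, −0.0034 for *zw10*, −0.025 for *cenpe* and −0.080 for *ncaph*. On log2(FPKM + 1), with the filter and without it, they were −0.12 for *fbxo5*, −0.074 for *cdc20*, −0.11 for *espl1*, −0.11 for *cdca8*, −0.042 for *zw10*, −0.11 for *cenpe* and −0.14 for *ncaph*. On log2(FPKM + 0.1) they were −0.00029 for *aurka*, −0.13 for *fbxo5*, −0.076 for *cdc20*, −0.13 for *espl1*, −0.12 for *cdca8*, −0.045 for *zw10*, −0.11 for *cenpe* and −0.14 for *ncaph*. The replicate block gave −0.0061 for *ncaph*, and without pair 1 it gave 0.10 for *plk1*, 0.13 for *cenpf*, 0.13 for *smc2*, 0.020 for *ncapg* and 0.023 for *racgap1*. With single libraries left out the ranges were −0.13 to 0.13 for *plk1*, −0.17 to 0.20 for *cenpf*, −0.21 to 0.12 for *smc2*, −0.25 to 0.057 for *ncapg*, −0.15 to 0.075 for *racgap1*, −0.10 to 0.13 for *fbxo5*, −0.039 to 0.23 for *cdc20*, −0.092 to 0.30 for *espl1*, −0.11 to 0.17 for *cdca8*, −0.075 to 0.28 for *cenpe* and −0.12 to 0.19 for *ncaph*.

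Of the 38 genes, 33 had at least 1000 counts in every library. The biological coefficient of variation over all genes was 0.243.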

Other observations

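Mitotic genes with a greater length behind their FPKM values lay further down in mutant 1. Whether that length is the one of the transcripts present was not tested. Over the 38 genes, the Spearman correlation of the length behind the FPKM values with the difference of mutant 1 from the mean of mutants 2 and 3 was −0.448, and over all 24277 genes tested it was −0.111. The same length had a correlation of −0.0301 with the log2 fold change between the groups. These are descriptions across genes, which share the same libraries and are not independent.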
